A study of Mus musculus with 12 samples.

Results

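The set described here holds 40 genes whose products copy DNA in S phase, taken from the table of counts by gene symbol. All 40 were found among the 49315 genes of the table, each under 1 Ensembl identifier, and all 40 passed the filter on low counts that left 18702 genes for testing. They were grouped by role into origin licensing, the MCM2-7 helicase, helicase activation, primase and polymerase alpha, the sliding clamp and its loader, the replicative polymerases, Okazaki fragment maturation, single-strand DNA binding, ribonucleotide reductase, and chromatin at the fork.

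RNA was sequenced from epididymal white adipose tissue (eWAT) of 12 male mice fed a high-fat diet (HFD, 60% fat) for 12 weeks, with 1 library per mouse and 3 mice in each of 4 groups. Flox mice carried the Mir181a2b2 flox/flox alleles, and KO mice were Mir181a2b2 -/- in every tissue, so that a difference between them cannot be assigned to a cell type. Mice of each genotype were injected once a week with vehicle or with methotrexate (MTX) at 1 mg/kg. The ages of these mice were not given in the sources used here.

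Replication starts when the origin recognition complex, Cdc6 and Cdt1 load the MCM2-7 helicase on DNA in G1 phase. In S phase Cdc45, the GINS complex, Mcm10 and treslin (Ticrr) switch the helicase on, polymerase alpha and primase lay down primers, and the polymerases delta and epsilon extend them with the clamp PCNA. Most of these genes are transcribed late in G1 under the control of E2F factors, and their mRNA is therefore low in resting tissue, where most adipocytes do not divide. MTX inhibits dihydrofolate reductase and so limits the thymidylate and purines from which DNA is made.

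Counted reads ranged from 19495310 to 23976469 per library (median 21824170), and the lowest count of a member in any library was 10. Of the 40 members, 13 fell below 100 counts in some library, and their folds are the least precise. At the deleted locus the genes Mir181a-2 and Mir181b-2 held 2 and 0 counts over the 12 libraries, so the deletion could not be checked in these counts. All 15 adipocyte markers held more than 3 counts in every library. The flox vehicle libraries also held epididymis transcripts, with 30 marker genes summing to 6073, 17499 and 1998 CPM (counts scaled to a common library total) of all counts in replicates 1, 3 and 4. The same sum was 596 CPM in flox MTX replicate 1 and between 2.03 and 23.6 CPM in the other 8 libraries. The comparisons that use flox vehicle replicates 1 and 3 are given below with all libraries first, and the called members without them after that. The study's methods describe age-matched males and cage-matched littermates. Nothing in the labels says how many cages or litters the mice came from or which mice shared them, and p-values measure the spread between these 12 libraries.

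The E2F motif was looked up first, as the feature that the promoters of replication genes are best known for. RefSeq windows of GRCm38.p6, from 250 bases before to 50 after a start, were at hand for 32 of the 40 members. The letters searched were TTTCCCGC, TTTCGCGC, TTTGCCGC and TTTGGCGC on both strands. At least 1 of them lay in a window of 13 of the 32 members (40.6%), against 2.26% of all 32851 windows and 4.17% of the 12939 tested genes that had a window. The CCAAT box (CCAAT on either strand) lay in 23 of the 32 (71.9%), against 41.9% of the tested genes with a window and 37.4% of all windows. The letters TTTGAA, the core of the element that many mitotic genes carry, lay in 4 of the 32 (12.5%), against 15% of the tested genes with a window and 17.9% of all windows. The 13 members with the E2F letters were Orc1, Cdc6, Cdt1, Mcm3, Mcm5, Mcm6, Mcm7, Gins3, Pola1, Rfc3, Pold1, Lig1 and Uhrf1.

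The upstream stretches of 6 members are printed 5′ to 3′ on the strand of the gene, each of 190 bases that end just before the RefSeq start. Capitals mark the E2F letters and CCAAT boxes on either strand. Mcm5 and Mcm6 show what E2F letters before the start look like, Mcm3 and Mcm10 are genes with large folds and CCAAT boxes alone in this stretch, Pola1 has E2F letters and a fold near 0, and Rpa1 has no E2F letters.
Mcm5 (chr8:75109319-75109508, plus strand): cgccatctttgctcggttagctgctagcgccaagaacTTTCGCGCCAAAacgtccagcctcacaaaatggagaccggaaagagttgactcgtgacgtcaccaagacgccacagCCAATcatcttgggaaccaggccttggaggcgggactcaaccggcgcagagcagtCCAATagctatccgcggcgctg
Mcm6 (chr1:128359706-128359895, minus strand): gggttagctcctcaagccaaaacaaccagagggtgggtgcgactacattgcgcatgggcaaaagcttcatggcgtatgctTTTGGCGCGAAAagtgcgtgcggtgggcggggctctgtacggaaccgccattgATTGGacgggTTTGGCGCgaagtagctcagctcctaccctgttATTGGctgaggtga
Mcm3 (chr1:20820313-20820502, minus strand): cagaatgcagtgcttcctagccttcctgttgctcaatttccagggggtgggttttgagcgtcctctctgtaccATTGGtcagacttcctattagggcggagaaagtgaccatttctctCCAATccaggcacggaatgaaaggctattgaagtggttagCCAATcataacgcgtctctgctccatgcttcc
Mcm10 (chr2:5012792-5012981, minus strand): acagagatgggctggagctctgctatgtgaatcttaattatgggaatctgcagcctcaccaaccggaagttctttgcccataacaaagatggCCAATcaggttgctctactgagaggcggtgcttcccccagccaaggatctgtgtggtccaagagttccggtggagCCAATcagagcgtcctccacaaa
Pola1 (chrX:93632156-93632345, minus strand): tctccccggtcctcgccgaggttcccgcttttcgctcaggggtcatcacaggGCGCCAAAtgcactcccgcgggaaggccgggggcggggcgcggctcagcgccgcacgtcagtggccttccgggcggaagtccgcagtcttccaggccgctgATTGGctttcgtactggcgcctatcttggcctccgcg
Rpa1 (chr11:75348384-75348573, minus strand): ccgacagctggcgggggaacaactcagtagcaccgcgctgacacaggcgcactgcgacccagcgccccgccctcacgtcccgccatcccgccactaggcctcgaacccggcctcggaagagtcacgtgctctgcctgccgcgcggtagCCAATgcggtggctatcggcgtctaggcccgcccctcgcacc
In Mcm5 and Mcm6 matches on both strands overlap in 1 run of capitals, and Mcm6 has a further match that begins 47 bases before the start. Mcm3 also has E2F letters after its start, at bases 20 and 39.

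Many replication genes were higher in eWAT of KO mice than of flox mice under vehicle. Of the 40 members, 17 were called and all 17 were higher in KO mice. A call needed an adjusted p (Benjamini-Hochberg over all tested genes, edgeR) below 0.1 and at least a 1.5-fold change. Among all 18702 genes 13.9% were called higher in this comparison. The members' log2 fold changes had a median of 0.43 (all genes: -0.06), ranged from -0.37 to 2.34 and were positive in 32 of 40. In 19 members the lowest KO library stood above the highest flox library, a pattern seen in 22.8% of all genes. The largest folds belonged to Cdt1, Mcm10, Mcm3, Gmnn, Mcm6, Pcna and Mcm5. These load, form or activate the helicase or clamp the polymerase, except for Gmnn, which inhibits the loader Cdt1. Outside the fit without flox vehicle replicates 1 and 3, 10 of the 17 kept their call at the same threshold in each of the other alternative fits (these 7, Gins1, Rfc3 and Uhrf1), whereas Cdc6, Pola2, Prim2, Pold1, Lig1, Rrm2 and Chaf1b lost it in others too.

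Under MTX most members were again higher in KO than in flox mice, but none passed the limit of a call. None of the 40 members was called by edgeR, as was none of all 18702 genes (0% called higher). In 13 members the adjusted p lay between 0.104 and 0.110, and 0.104 was also the smallest value of all genes. How many other genes lay in this range was not counted. At an unadjusted p below 0.05 there were 24 members, 22 higher and 2 lower, against 24.5% of all genes. The median was 0.56 (all genes: -0.05), with 35 of 40 higher in KO mice, and in 28 members the KO libraries stood above all flox libraries, against 14.7% of all genes. DESeq2 called 17 members, all higher, against 7.87% of the genes to which it gave an adjusted p. Of these 17, 12 were also called under vehicle, and the other 5 were Mcm2, Mcm4, Ticrr, Prim1 and Chaf1a. Leaving out flox MTX replicate 2 gave 16 calls with edgeR, all higher, when 2079 of all 19532 genes fitted were called higher. Leaving out flox vehicle replicate 3 gave 12, all higher, when 541 of 19024 genes were called higher. That library is not in this comparison, but it enters the filter, the scaling and the spread, which were estimated over all 12 libraries.

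**Figure D1:**
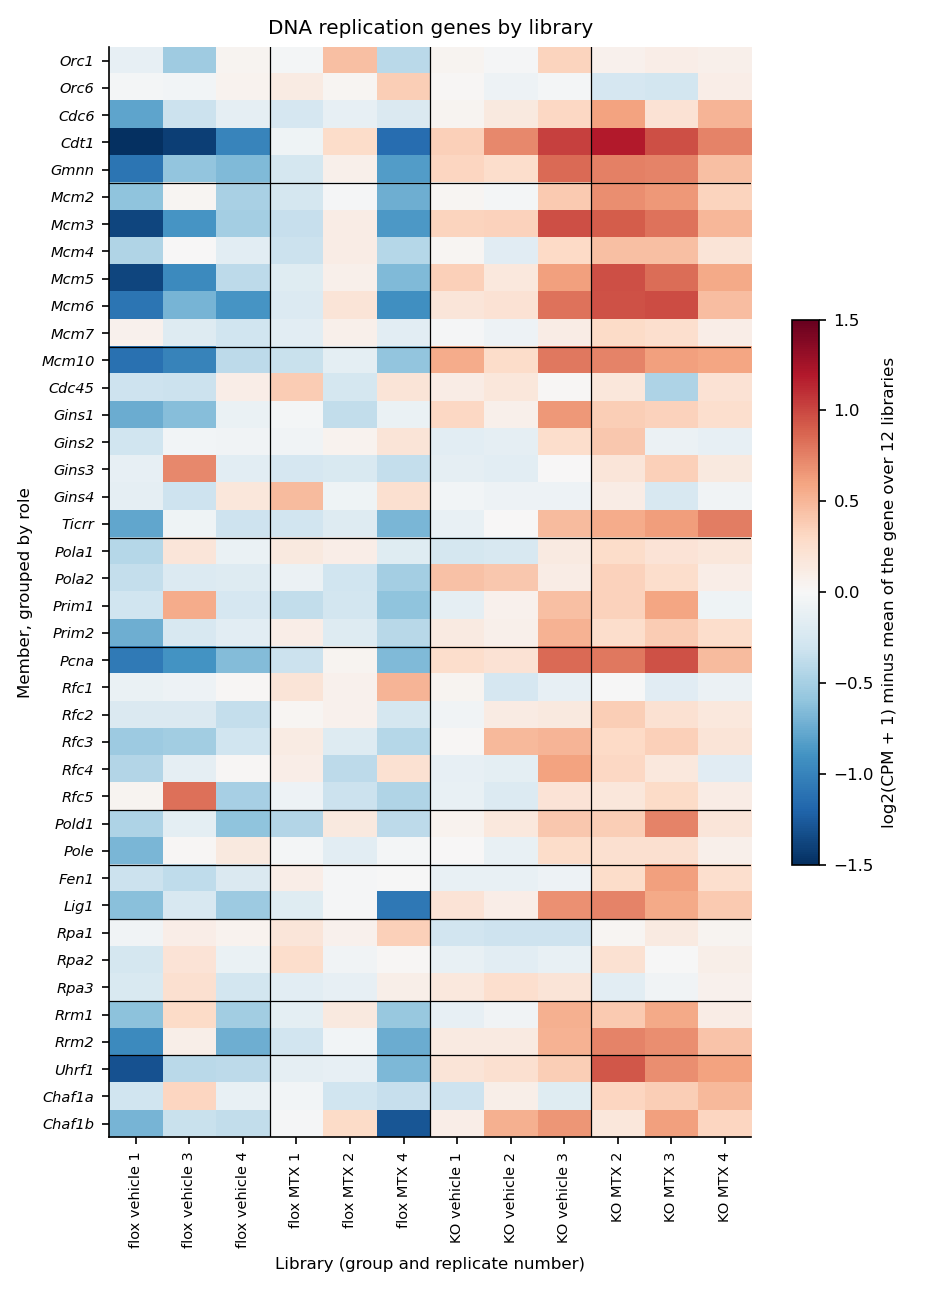
Heat map of log2(CPM + 1) of each member (rows, by role) in each library (columns, by group), minus the mean of the gene over the 12 libraries. Cdt1, Gmnn, Mcm3, Mcm5, Mcm6, Mcm10 and Pcna are above their mean in the 6 KO libraries and below it in the 3 flox vehicle libraries, whereas Gins3, Prim1 and Rfc5 are high in flox vehicle replicate 3.

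Both genotype comparisons gave similar orders of the members. They share no library, and across the 40 members their log2 fold changes had Pearson's r = 0.72 and Spearman's rho = 0.74, while r over all genes was 0.41. Genes are not independent replicates, so these values are descriptions. The sign was the same in 33 of 40 members and in 69.3% of all genes. All 17 members called under vehicle were higher in KO mice under MTX too, and 15 of them had an unadjusted p below 0.05 there.

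**Figure D2:**
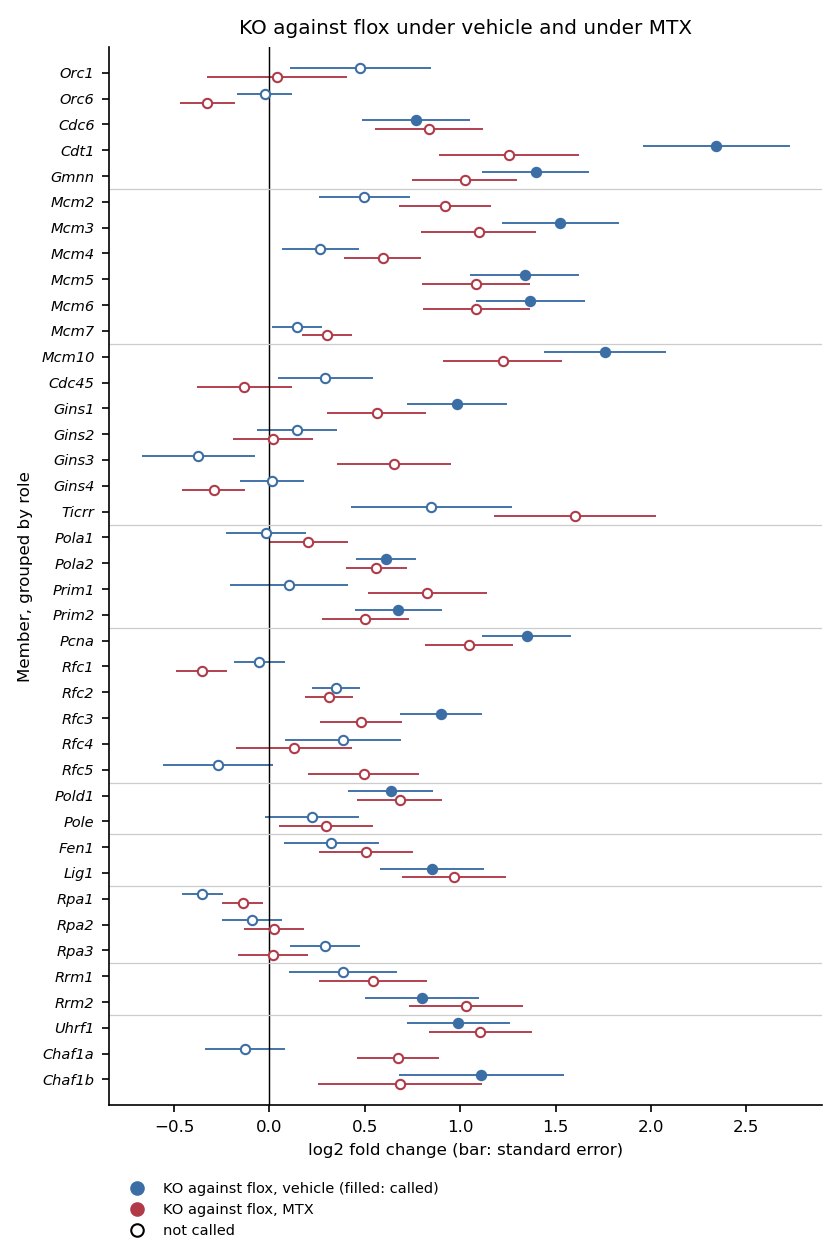
The log2 fold change of KO against flox mice for each member, under vehicle and under MTX, with its standard error. Filled points were called, which 17 members were under vehicle and none under MTX. With TMM scaling the values for Rpa1, Orc6 and Rfc1 lie below 0 in both comparisons, although scaling by library size alone put Rpa1 at 0.044 under MTX.

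Among the licensing factors, Cdt1, which brings MCM2-7 to the origin, had the largest change of the set. Its level in the flox vehicle libraries (replicates 1, 3 and 4) was 2.52, 3.19 and 4.62 CPM, against 13.3, 17.4 and 21.7 CPM in KO vehicle replicates 1, 2 and 3. The same order of replicates is used throughout. The groups did not overlap, and the log2 fold change was 2.34 ± 0.38 (SE, adjusted p = 0.00323), a 5.07-fold difference. Under MTX it was at 9.64, 12.5 and 4.06 CPM in flox replicates 1, 2 and 4 and at 24.4, 20.8 and 17.7 CPM in KO replicates 2, 3 and 4, again without overlap (1.26 ± 0.37, adjusted p = 0.110). Geminin (Gmnn), which binds Cdt1 and blocks a second round of licensing, was at 4.90, 7.39 and 6.97 CPM in flox vehicle libraries and at 14.8, 14.1 and 21.8 CPM in KO vehicle libraries (1.40 ± 0.28, adjusted p = 0.00506). In the MTX groups it was at 9.49, 12.3 and 6.07 CPM in flox and 20.4, 20.1 and 16.3 CPM in KO libraries (1.02 ± 0.28, adjusted p = 0.106). The loader and its inhibitor were thus both higher in KO mice under vehicle, and KO libraries stood above flox libraries in both treatments.

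Cdc6, the ATPase that works with Cdt1, was also called under vehicle (0.77 ± 0.29, adjusted p = 0.0651), a call made in 14 of 21 alternative fits. The subunits of the origin recognition complex in the set were not. Orc1, the subunit that recruits Cdc6, was at 1.74, 1.06 and 2.08 CPM in flox vehicle, 2.07, 1.95 and 2.76 CPM in KO vehicle, 1.94, 3.09 and 1.25 CPM in flox MTX and 2.13, 2.21 and 2.14 CPM in KO MTX libraries, with overlap in each comparison. The libraries of Orc6, a smaller subunit, lay between 20.1 and 22.1 CPM in both vehicle groups. In mice given MTX it was at 23.1, 21.6 and 27.8 CPM in flox and at 17.7, 17.4 and 22.9 CPM in KO libraries (-0.32 ± 0.15, adjusted p = 0.201), so the groups overlapped.

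Of the MCM2-7 ring, 3 of 6 subunits were called under vehicle. Mcm3, Mcm5 and Mcm6 were called, with log2 fold changes of 1.53, 1.34 and 1.37, whereas Mcm2, Mcm4 and Mcm7 had values of 0.50, 0.27 and 0.14 and were not called. Mcm6 was at 14.2, 18.9 and 16.6 CPM in flox vehicle and at 35.6, 36.8 and 55.9 CPM in KO vehicle libraries (adjusted p = 0.00580). Mcm3 was at 8.77, 12.8 and 16.9 CPM in flox and at 30.9, 31.2 and 48.6 CPM in KO libraries (adjusted p = 0.00506). Mcm5 was at 5.47, 7.67 and 11.7 CPM in flox and at 20.5, 17.7 and 24.7 CPM in KO libraries (adjusted p = 0.00631). For these subunits every KO library was above every flox library, and KO vehicle replicate 3 was the highest of the 6.

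Under MTX all 6 subunits stood higher in each KO library than in each flox library, with log2 fold changes from 0.30 for Mcm7 to 1.10 for Mcm3 and unadjusted p below 0.05 for each. Mcm6 was at 27.0, 36.1 and 16.1 CPM in flox and 61.8, 62.9 and 43.8 CPM in KO libraries (1.09 ± 0.28, adjusted p = 0.104). Mcm3 was at 19.0, 26.5 and 12.9 CPM in flox and 46.7, 43.7 and 34.8 CPM in KO libraries, and Mcm5 at 13.7, 16.6 and 9.57 CPM in flox and 31.9, 29.0 and 23.8 CPM in KO libraries. The summed CPM of the 6 subunits were 87.3, 104 and 99.9 in flox vehicle, 155, 150 and 210 in KO vehicle, 118, 151 and 91.4 in flox MTX and 234, 228 and 181 in KO MTX libraries. Flox MTX replicate 2 was at the level of the lowest KO vehicle libraries in this sum, and flox MTX replicate 4 that of the flox vehicle libraries. Per kb of exon, with all annotated exons of a gene merged, levels of different genes can be compared only roughly. On this scale Mcm3 and Mcm6 stood at 3.42 and 3.55 CPM per kb in flox vehicle mice, below Mcm7 at 7.02. In KO MTX mice they stood at 11.1 and 12.0 CPM per kb, above Mcm7 at 9.02. Exons of other genes overlap 12.6% of the exon bases of Mcm7.

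Among the 7 genes that activate the helicase, Mcm10, which links it to polymerase alpha, was at 1.30, 1.49 and 2.82 CPM in flox vehicle and at 6.35, 5.04 and 7.64 CPM in KO vehicle libraries (1.76 ± 0.32, adjusted p = 0.00400, a 3.39-fold difference). Under MTX its flox libraries were at 2.98, 3.50 and 2.31 CPM and its KO libraries at 7.35, 6.67 and 6.56 CPM (1.22 ± 0.31, adjusted p = 0.104). Ticrr, the scaffold that brings Cdc45 and GINS to the helicase, was at 0.521, 1.49 and 1.11 CPM in flox vehicle and at 1.41, 1.61 and 2.62 CPM in KO vehicle libraries, with overlap. Under MTX it had the largest difference of the 40, at 1.13, 1.27 and 0.625 CPM in flox and 2.83, 3.03 and 3.45 CPM in KO libraries (1.60 ± 0.43, adjusted p = 0.104). Mcm10 thus stood apart in both treatments, and Ticrr under MTX alone, although the interaction for Ticrr (0.76 ± 0.60, adjusted p = 0.564) did not pass the test.

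Of the GINS tetramer, which holds Cdc45 on the helicase, 1 subunit was called. Gins1 was called under vehicle (0.98 ± 0.26, adjusted p = 0.0168). Gins4, the most abundant of this role per kb of exon, was at 32.9, 29.1 and 40.8 CPM in flox vehicle, 35.3, 34.3 and 34.2 CPM in KO vehicle, 50.5, 34.6 and 43.0 CPM in flox MTX and 39.3, 30.4 and 34.8 CPM in KO MTX libraries, with overlap under both treatments. Gins3 was at 3.34, 6.80 and 3.23 CPM in flox vehicle and 3.33, 3.26 and 3.75 CPM in KO vehicle libraries, so that its lower mean in KO mice came with a single high flox library, replicate 3. Its MTX libraries were at 2.98, 3.04 and 2.69 CPM in flox and at 4.39, 5.07 and 4.24 CPM in KO libraries (0.65 ± 0.30, adjusted p = 0.207). Cdc45 was at 7.98, 7.91 and 10.8 CPM in flox vehicle, 11, 11.5 and 10.3 CPM in KO vehicle, 13.4, 8.23 and 11.7 CPM in flox MTX and 11.4, 7.06 and 11.9 CPM in KO MTX libraries, and it overlapped in each comparison. For Gins2, 67.3% of the exon bases overlap exons of Gse1 on the opposite strand, and since the strand setting of the counting was not stated its values are uncertain.

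The polymerase alpha and primase complex makes the primers. Its accessory subunit Pola2 was at 13, 14.5 and 14.6 CPM in flox vehicle and at 23.4, 22.7 and 18.4 CPM in KO vehicle libraries (0.61 ± 0.16, adjusted p = 0.0150). In the MTX groups it was at 15.8, 13.5 and 11.6 CPM in flox and at 21.7, 20.6 and 18.2 CPM in KO libraries (0.56 ± 0.16, adjusted p = 0.109). Pola2 was without overlap in both treatments, at folds of 1.53 and 1.47. The primase subunit Prim2 was called under vehicle as well (0.68 ± 0.23, adjusted p = 0.0453). Prim1, the catalytic subunit of primase, was at 5.55, 10.9 and 5.77 CPM in flox vehicle and at 6.40, 7.45 and 10.1 CPM in KO vehicle libraries, and under MTX at 5.29, 5.68 and 4.31 CPM in flox and at 9.27, 11.2 and 6.73 CPM in KO libraries. Pola1, the catalytic subunit of the polymerase, was at 7.29, 11.6 and 9.42 CPM in flox vehicle and at 8.31, 8.43 and 11.3 CPM in KO vehicle libraries, which overlapped, and under MTX at 11.4, 11 and 8.88 CPM in flox and at 12.5, 11.9 and 11.5 CPM in KO libraries.

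Pcna, the sliding clamp, was the most abundant member per kb of exon (39.0 CPM per kb over all libraries). It was at 39.8, 44.8 and 53.4 CPM in flox vehicle and at 101, 97.6 and 153 CPM in KO vehicle libraries, a 2.55-fold difference without overlap (1.35 ± 0.23, adjusted p = 0.00351). Under MTX it was at 67.0, 86.9 and 53 CPM in flox and at 146, 164 and 117 CPM in KO libraries (1.05 ± 0.23, adjusted p = 0.104), and it had the smallest unadjusted p of the 40 there. Of the loader that opens the clamp, Rfc3 was called under vehicle (0.90 ± 0.21, adjusted p = 0.00999), and Rfc2 had an adjusted p of 0.0576 at a fold of 1.27, under the limit of size.

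Rfc1, the large subunit of the loader, was not called. It was at 53.2, 54.1 and 57.9 CPM in flox vehicle and at 59.0, 47.8 and 52.6 CPM in KO vehicle libraries. Its MTX libraries were at 65.7, 59.7 and 81.6 CPM in flox and at 57.1, 50.8 and 53.8 CPM in KO libraries, and here the KO libraries all lay below the flox libraries (-0.35 ± 0.13, adjusted p = 0.148). Rfc5 was at 17.1, 30.1 and 11.4 CPM in flox vehicle and at 15.3, 14.2 and 19.2 CPM in KO vehicle libraries, and at 15.6, 13 and 11.9 CPM in flox MTX and 18.8, 20.4 and 18.0 CPM in KO MTX libraries. As for Gins3, its negative value under vehicle (-0.27 ± 0.29) came with flox vehicle replicate 3, and without that library it was 0.19 for Rfc5 and 0.068 for Gins3.

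**Figure D3:**
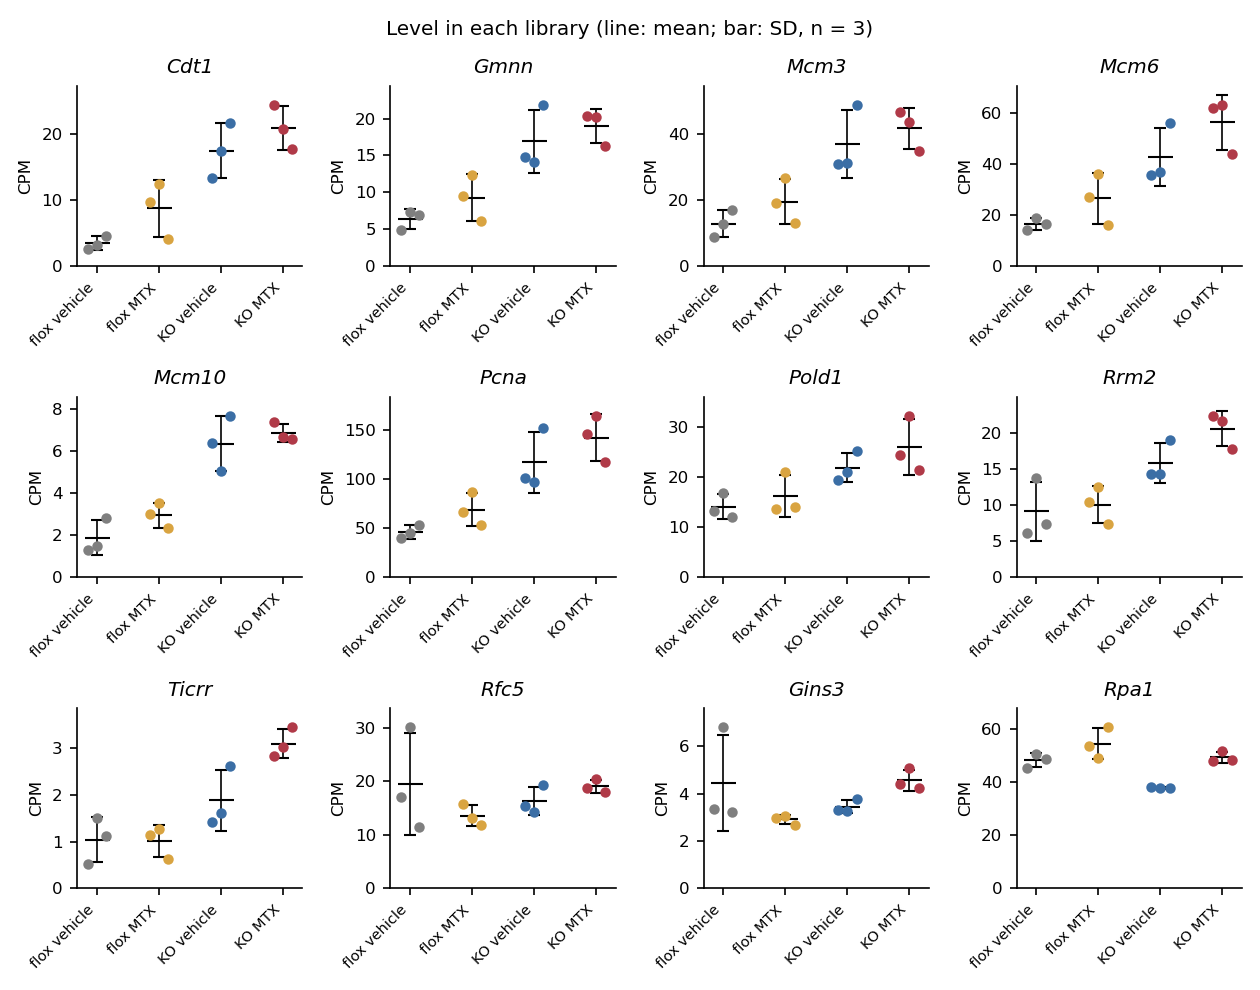
Level in CPM of 12 members in each library, with the mean and SD of each group (n = 3). Cdt1, Gmnn, Mcm3, Mcm6, Mcm10, Pcna and Pold1 are higher in all KO libraries than in the flox libraries given the same injection, Rfc5 and Gins3 have a high point in flox vehicle replicate 3, and Rpa1 is lowest in the 3 KO vehicle libraries.

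Pold1, the catalytic subunit of polymerase delta, which copies the lagging strand, was at 13.3, 16.9 and 12.1 CPM in flox vehicle and at 19.4, 21.0 and 25.1 CPM in KO vehicle libraries (0.64 ± 0.22, adjusted p = 0.0536). Under MTX it was at 13.6, 21.0 and 14.0 CPM in flox and at 24.5, 32.2 and 21.3 CPM in KO libraries (0.68 ± 0.22, adjusted p = 0.121). Pole, the catalytic subunit of polymerase epsilon on the leading strand, had values of 0.23 and 0.30 in these comparisons and was not called. Lig1, the ligase that joins Okazaki fragments, was at 13.2, 17.5 and 14.1 CPM in flox vehicle and at 24.4, 22.5 and 34.3 CPM in KO vehicle libraries (0.85 ± 0.27, adjusted p = 0.0363). In the MTX groups it was at 18.3, 20.8 and 9.44 CPM in flox and at 35.8, 31.6 and 27.8 CPM in KO libraries (0.97 ± 0.27, adjusted p = 0.109). The flap nuclease Fen1 was counted at 1.48, 1.38 and 1.66 CPM in flox vehicle, 1.86, 1.86 and 1.92 CPM in KO vehicle, 2.31, 2.05 and 2.06 CPM in flox MTX and 2.74, 3.73 and 2.67 CPM in KO MTX libraries. The values for Fen1 are uncertain, since 84.2% of its exon bases overlap exons of Tmem258 and Gm10143 on the opposite strand.

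Replication protein A coats single-stranded DNA in replication and in repair, and its 3 subunits were the role with no member called and a median under vehicle of -0.09. Rpa1 was at 45.4, 50.7 and 48.9 CPM in flox vehicle and at 38.3, 37.7 and 37.7 CPM in KO vehicle libraries. Here the KO libraries all lay below the flox libraries (-0.35 ± 0.11, adjusted p = 0.0294), and the fold of 0.783 was within the limit of size, so that Rpa1 was not called. Its MTX libraries were at 53.7, 49.2 and 60.8 CPM in flox and at 48, 51.9 and 48.6 CPM in KO libraries, with overlap. Rpa2 was at 16, 22.5 and 18.0 CPM in flox vehicle, 17.8, 17.3 and 17.9 CPM in KO vehicle, 23.5, 18.6 and 19.7 CPM in flox MTX and 23.0, 19.2 and 20.6 CPM in KO MTX libraries. Rpa3 was at 8.81, 12.5 and 8.45 CPM in flox vehicle, 11.7, 12.6 and 12.1 CPM in KO vehicle, 9.31, 9.54 and 11.1 CPM in flox MTX and 9.27, 10.1 and 11 CPM in KO MTX libraries. Both overlapped between the genotypes.

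Ribonucleotide reductase makes the deoxynucleotides. Rrm2, the subunit whose level follows S phase, was at 6.16, 13.8 and 7.34 CPM in flox vehicle and at 14.3, 14.2 and 19.0 CPM in KO vehicle libraries (0.80 ± 0.30, adjusted p = 0.0672). The groups were separate by a small margin, with flox replicate 3 close to the KO libraries. Under MTX it was at 10.3, 12.5 and 7.32 CPM in flox and at 22.3, 21.6 and 17.7 CPM in KO libraries (1.03 ± 0.30, adjusted p = 0.110). Rrm1, the large subunit, was at 20.9, 39.8 and 22.4 CPM in flox vehicle, 29.9, 31.3 and 47.6 CPM in KO vehicle, 29.3, 36.1 and 21.6 CPM in flox MTX and 43.1, 48.6 and 35.3 CPM in KO MTX libraries, and it overlapped under both treatments.

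Of the chromatin genes, Uhrf1, which carries DNA methylation over to the new strand, was at 4.60, 9.44 and 9.56 CPM in flox vehicle and at 14.8, 15.3 and 16.8 CPM in KO vehicle libraries (0.99 ± 0.27, adjusted p = 0.0184). In mice given MTX it was at 11.6, 11.7 and 7.69 CPM in flox and at 25.4, 21.4 and 20.1 CPM in KO libraries (1.11 ± 0.27, adjusted p = 0.104). Chaf1b, a subunit of the histone chaperone CAF-1, was called under vehicle (1.11 ± 0.43, adjusted p = 0.0769), a call made in 13 of 21 alternative fits, and had a value of 0.69 ± 0.43 (adjusted p = 0.343) under MTX. Chaf1a, its partner, was at 7.55, 12.2 and 8.73 CPM in flox vehicle and at 7.51, 10.2 and 8.29 CPM in KO vehicle libraries, with overlap, and at 9.26, 7.54 and 7.32 CPM in flox MTX and 12.1, 12.7 and 13.7 CPM in KO MTX libraries, without overlap (0.67 ± 0.21, adjusted p = 0.116). Exons of Ubxn6 on the opposite strand cover 52.5% of its exon bases.

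The members with E2F letters in their window held 9 of the 14 calls under vehicle among the 32 with a window. Their median was 0.85 over 13 genes, with values from -0.37 for Gins3 to 2.34 for Cdt1, and the 19 members without them had a median of 0.32 and 5 calls. Under MTX the medians were 0.84 and 0.54. The difference between these groups was not tested.

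Of the 40 members, 2 were called between MTX and vehicle in flox mice. These were Cdt1 and Pcna, both higher under MTX, against 8.09% of all genes called higher. For Cdt1 the log2 fold change was 1.35 ± 0.38 (adjusted p = 0.0312), and for Pcna it was 0.58 ± 0.23 (adjusted p = 0.0971). In both genes flox MTX replicate 4 overlapped the vehicle libraries. Values above that of Pcna that did not pass the test belonged to Mcm5 (0.69 ± 0.28, adjusted p = 0.113), Mcm6 (0.68 ± 0.28, adjusted p = 0.116), Mcm10 (0.65) and Mcm3 (0.61). The smallest were those of Gins3 (-0.62 ± 0.30), Prim1 (-0.54 ± 0.31) and Rfc5 (-0.53 ± 0.29), each with its highest flox library in flox vehicle replicate 3. The median of the 40 was 0.21 (all genes: 0.05), with 33 higher (27 if flox vehicle replicate 1 was left out, 25 if flox MTX replicate 2 was), and 2 members (Rfc1 and Fen1) had all MTX libraries above all vehicle libraries, against 10.9% of all genes. Scaled by library size alone, 21 of the 40 were higher, and the median was 0.014 and that of all genes -0.15, so that the distance between them stayed at 0.17, against 0.16 with the trimmed mean of M values (TMM). Over all genes that scaling gave 766 of 4373 calls higher, against 1513 of 4528 with TMM. Leaving out flox vehicle replicate 4 gave 8 calls, 6 of them higher, when 2198 of all 19402 genes fitted were called higher and 5995 in either direction. Leaving out flox MTX replicate 4 gave 7 calls, all higher, when 2001 of 19644 genes were called higher. Leaving out flox vehicle replicate 3 gave none. Leaving out flox vehicle replicate 1, KO vehicle replicate 1 or 2, flox MTX replicate 1 or 2, or KO MTX replicate 2 gave 1 call. The KO libraries are not in this comparison, but they enter the same fit.

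In KO mice no member was called between MTX and vehicle by edgeR (all genes: 0% called higher) or by DESeq2. An unadjusted p below 0.05 was found in 3 of 40, against 7.97% of all genes. These were Fen1 (0.69 ± 0.25, adjusted p = 0.472), Rpa1 (0.39 ± 0.11, adjusted p = 0.346) and Chaf1a (0.57 ± 0.21, adjusted p = 0.507). Exons on the opposite strand overlap 84.2% of the exon bases of Fen1 and 52.5% of those of Chaf1a, so the values of both are uncertain. The largest value was that of Ticrr (0.72 ± 0.41, adjusted p = 0.713), and the smallest those of Rpa3 (-0.27 ± 0.18), Orc6 (-0.11 ± 0.15) and Cdc45 (-0.10 ± 0.25). The median was 0.22 (all genes: -0.01), with 31 of 40 higher. In 9 members the MTX libraries were all above the vehicle libraries, against 11.1% of all genes.

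**Figure D4:**
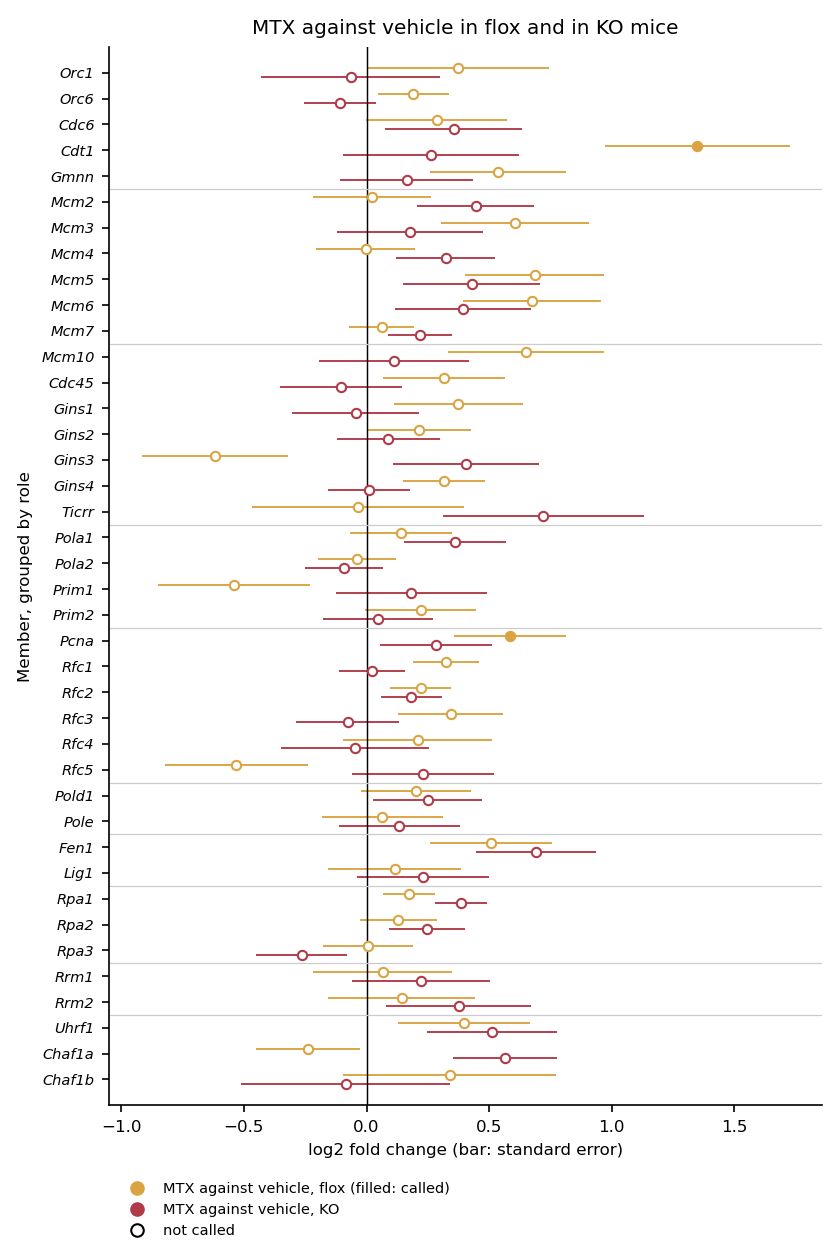
The log2 fold change of MTX against vehicle for each member in flox and in KO mice, with its standard error. Only Cdt1 and Pcna in flox mice have filled points, which mark calls, and Gins3, Prim1 and Rfc5 lie farthest below 0 in flox mice.

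Across members the effects of MTX in the 2 genotypes showed no common order, with Pearson's r = -0.06 over 40 members (all genes: 0.34) and the same sign in 26. The interaction of genotype and treatment was called in no member by edgeR or DESeq2, against 0.898% of all genes called higher. At an unadjusted p below 0.05 there were 2 members, against 15% of all genes. These were Gins3 (1.03 ± 0.42, adjusted p = 0.287) and Chaf1a (0.80 ± 0.30, adjusted p = 0.250), and the third largest value was that of Rfc5 (0.76 ± 0.41). Without flox vehicle replicate 3 the values were 0.58 for Gins3, 0.58 for Chaf1a and 0.31 for Rfc5. The smallest were those of Cdt1 (-1.09 ± 0.52, adjusted p = 0.355), Mcm10 (-0.54 ± 0.44) and Orc1 (-0.44 ± 0.52). The median was -0.04, as near 0 as that of all genes (-0.05). The values of Cdt1 thus did not show that the effect of genotype differed between the treatments.

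The rest of the replication machinery was followed with lists of genes that do not overlap with the 40, and the counts are to be read against 13.9% of all genes called higher and 17.8% called lower in KO mice under vehicle. Of 40 other replication factors tested, 12 were called under vehicle, all higher in KO mice, and their median was 0.22. Among them Clspn, which links the fork to the checkpoint kinase, had a log2 fold change of 1.62 (adjusted p = 0.0311) under vehicle and 1.35 (adjusted p = 0.138) under MTX, and Dscc1, a subunit of an alternative clamp loader, 1.61 (adjusted p = 0.0185) and 1.27 (adjusted p = 0.125). Of 23 enzymes of deoxynucleotide and folate metabolism, 5 were called higher and 4 lower, with a median of 0.08. Tk1, the thymidine kinase of S phase, rose by 1.72 on the log2 scale (adjusted p = 0.00388), and Samhd1, which breaks deoxynucleotides down and is abundant in myeloid cells, by 1.38 (adjusted p = 0.00822). In flox mice MTX gave 5 calls higher and 3 lower among the 23, against 8.09% and 16.1% of all genes, and in KO mice it gave none. Of 19 E2F and pocket proteins, 7 were called higher and 1 lower in KO mice under vehicle, with a median of 0.14. E2f8, a repressor that is itself made in S phase, had values of 2.20 (adjusted p = 0.00413) under vehicle and 1.53 (adjusted p = 0.104) under MTX, and E2f7, its relative, 1.13 (adjusted p = 0.0303) and 1.34 (adjusted p = 0.104).

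Genes of mitosis had a larger median than the replication genes, a difference that was not tested. Of 30, 24 were called higher in KO mice under vehicle and none lower, with a median of 1.56, and under MTX none was called, with all 30 higher and a median of 1.14. Hmmr, a spindle protein, had a log2 fold change of 2.37 (adjusted p = 0.00284) under vehicle and 1.47 (adjusted p = 0.104) under MTX, and the mitotic kinase Plk1 1.61 (adjusted p = 0.00695) and 1.40 (adjusted p = 0.104). In flox mice MTX gave 11 calls higher and 1 lower among the 30, against 8.09% and 16.1% of all genes. Of 25 genes of the replication checkpoint and repair, 7 were called higher and 1 lower under vehicle (median 0.24). Brca1 had a value of 1.44 (adjusted p = 0.0445) under vehicle and 1.56 (adjusted p = 0.114) under MTX, and Fanci 0.76 (adjusted p = 0.165) and 1.59 (adjusted p = 0.104). Of 16 p53 targets that mark DNA damage, 4 were called higher and 2 lower under vehicle, while MTX gave 1 call in flox mice and none in KO mice. Plk2, a stress kinase among them, had a value of 2.53 (adjusted p = 0.00349) under vehicle and 1.74 (adjusted p = 0.104) under MTX, and the stress cytokine Gdf15 had values of 0.69 and 1.89 (adjusted p = 0.170).

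Macrophage markers, like many replication genes, were higher in KO mice, and their median was the larger under vehicle (2.82 against 0.43). For MTX against vehicle in flox mice it was the larger too (1.79 against 0.21). There 17 of 20 macrophage markers were called higher, against 2 of 40 replication genes and 8.09% of all genes. The differences between the lists were not tested. In bulk tissue, fewer cells of a type and less RNA per cell cannot be told apart. All 20 macrophage markers were called higher in KO mice under vehicle (median 2.82), and none was at 0 in any group. Their summed share of all counts was between 964 and 1672 CPM in flox vehicle, 6994 and 13553 CPM in KO vehicle, 1098 and 7850 CPM in flox MTX and 9503 and 16578 CPM in KO MTX libraries. The 40 replication genes summed to 512 to 674, 758 to 968, 494 to 731 and 858 to 1048 CPM in the same order. In 3 of the 4 groups the library with the highest replication sum also had the highest macrophage sum, namely KO vehicle replicate 3, flox MTX replicate 2 and KO MTX replicate 3. The exception was flox vehicle replicate 3, which held most epididymis transcripts and least macrophage transcripts of its group. The fibroblast and progenitor list and the mesothelium list were highest in the library with the highest replication sum in 3 of the 4 groups too, and the adipocyte list was lowest in that library in all 4 groups, at 30409, 31536, 41385 and 20725 CPM in flox vehicle replicate 3, KO vehicle replicate 3, flox MTX replicate 2 and KO MTX replicate 3. Of the other lists, 12 of 14 endothelial and 11 of 13 fibroblast and progenitor markers were called higher in KO mice under vehicle (1 fibroblast marker lower), 4 of 15 adipocyte markers and 4 of 12 genes of the mitochondrial genome were called lower, and 3 of 18 lymphocyte markers were called higher. Of 13 erythroid and myeloid precursor genes, 1 was called higher and 3 lower, and 2 of 12 mesothelial genes went each way. The part of these cell types in the difference of the replication genes was not tested. Under MTX none of the genes of any list was called between the genotypes, and the macrophage list had a median of 1.40.

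**Figure D5:**
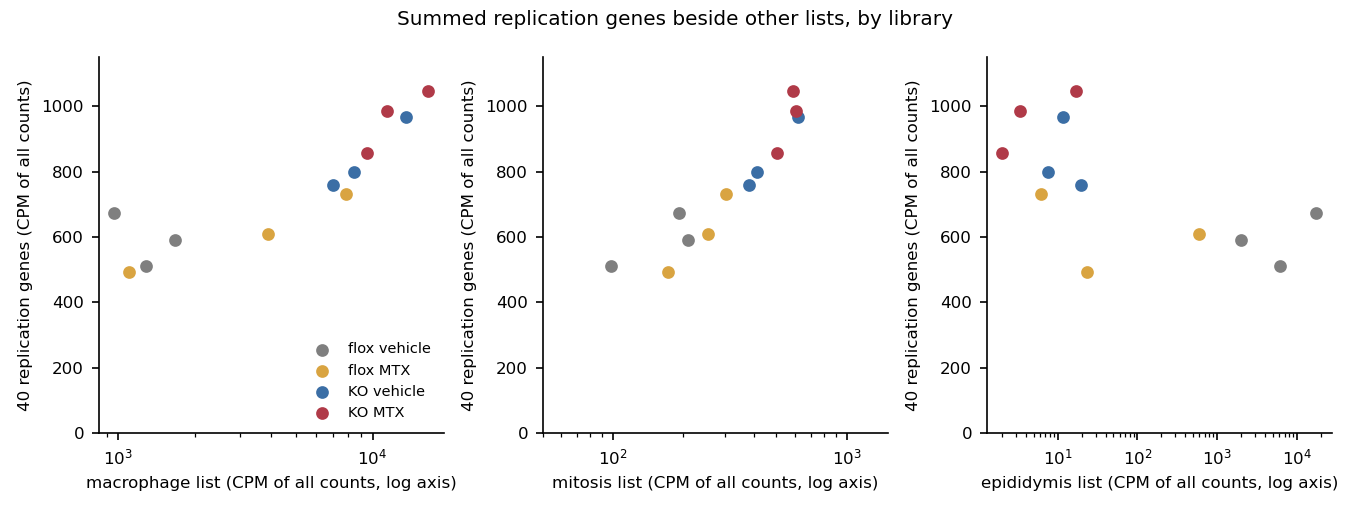
Summed share of the 40 replication genes in each library (vertical axis, CPM of all counts) against the summed macrophage, mitosis and epididymis lists (horizontal, log axes). KO libraries lie at 758 CPM or more for the replication genes and at 6994 CPM or more for the macrophage list, and the libraries rich in epididymis transcripts are those of flox vehicle mice and flox MTX replicate 1.

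Epididymis transcripts moved the other way. Of the 18 epididymis markers tested, 15 were called lower in KO mice under vehicle, as were 19 of 20 testis germ cell markers, and 8 of the 30 epididymis markers were at 0 in all KO MTX libraries. The members were compared with the order of the epididymis list in the flox vehicle libraries, but not with that of the testis list (696, 620 and 312 CPM in replicates 1, 3 and 4). Of the 40, 20 had their highest flox vehicle level in replicate 3, against 42.2% of all genes, and 5 (Gins3, Rfc2, Rfc5, Pold1 and Rpa3) ranked the 3 flox vehicle libraries as the epididymis list did, as 28.1% of all genes did. Without flox vehicle replicate 3, 18 members were called higher in KO mice, when 2185 of all 19024 genes fitted were. Without replicate 1, 10 members were, when 2125 of 19243 genes were. Leaving out KO vehicle replicate 3 gave 11, when 1940 of 19609 genes were called higher. With both flox vehicle replicates 1 and 3 left out, which leaves 1 library in that group, no member was called and the smallest adjusted p was 0.101, while the median was 0.49 and 32 of 40 were higher. In that fit the lone library is assumed to vary like those of the other groups, so the loss of calls also reflects the smaller design. The library left, flox vehicle replicate 4, itself held 1998 CPM of epididymis transcripts, against 7.51 to 19.4 CPM in KO vehicle libraries. The values of that fit are therefore not free of these transcripts. The values of the 17 members moved by over 1.5 times for Cdc6 (0.77 to 0.42), Mcm5 (1.34 to 0.84) and Gins1 (0.98 to 0.54), while Cdt1 went from 2.34 to 1.92, Mcm10 from 1.76 to 1.18, Mcm3 from 1.53 to 1.13, Pcna from 1.35 to 1.14 and Mcm6 stayed at 1.37. That fit, chosen after the values were seen, called 1415 genes in all, against 5924 with the 12 libraries.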

How the data were processed

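RNA-seq of eWAT from 12 mice was analysed. The authors trimmed reads with Trimmomatic 0.36, aligned them with STAR 2.5.2b to the mouse genome and counted them per gene with featureCounts of Subread 1.5.2, and they deposited these raw counts, 1 column per mouse. The strand setting was not given in the sources used here, and the labels and the study's methods differ on how the RNA was selected. Genes were filtered with filterByExpr, scaled by TMM and tested with the quasi-likelihood test of edgeR 4.0.16 in R 4.3.3, with 1 coefficient per group over 12 libraries. A call needed a Benjamini-Hochberg adjusted p below 0.1 over 18702 genes and a fold change of at least 1.5. CPM used TMM library sizes, except for summed lists, which are CPM of all counts. DESeq2 1.42.0, other scalings, filters and libraries left out were alternatives, and the fit was tested on simulated data. Members with values in every library were, in each role, the most abundant and the one with the smallest p under MTX, in each comparison the 3 largest and 3 smallest values, and those of opposite sign. The members and lists were chosen with earlier results of these data known. Replicate numbers were not used to pair the mice in the main fit. The deviations of same-numbered libraries had a median correlation of 0.035 (-0.27 to 0.25), against 0.011 for other pairs of libraries from different groups. Such correlations cannot show whether same-numbered mice shared a cage or litter.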

Additional observations from a re-analysis of the deposited data

How the results depend on the processing

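In every alternative run the median of the members kept its sign in KO against flox mice and in MTX against vehicle, while that of the interaction changed sign in some. The 17 calls in KO against flox under vehicle fell to 3 with a log2 fold change of at least 1.5 and to 0 without flox vehicle replicates 1 and 3. Leaving out 1 library gave 10 to 18 calls and medians of 0.33 to 0.56. Under MTX the 0 calls became 17 with DESeq2, 12 with no filter and 15 with a minimum of 10 counts in each library, all higher. Over all genes DESeq2 called 7.87% of those given an adjusted p higher. No filter called 486 of 34653 genes higher, and the minimum of 10 counts called 725 of 14132. The 6 libraries of the comparison gave 0 calls of members, and leaving out 1 library gave 0 to 16 (medians 0.48 to 0.67). For MTX in flox mice no filter gave 3 calls, all higher, when 1663 of 34653 genes were called higher. The 2 calls for MTX in flox mice became 1 at an adjusted p below 0.05, with RLE factors, with library size only, with factors computed without epididymis and testis genes, and with the minimum of 10 counts. They became 0 at a log2 fold change of 1.5, with the 6 libraries of the comparison and without flox vehicle replicates 1 and 3, and 0 to 8 with 1 library left out (medians 0.13 to 0.30). With 1 library left out, MTX in KO mice and the interaction gave 0 calls, with medians of 0.11 to 0.38 and -0.19 to 0.051. Scaling by library size only shifted KO against flox under MTX for all genes (median -0.05, then 0.12) and for the members (0.74), so that the distance stayed at 0.61. It moved the members to 0.014 for MTX in flox mice and to 0.13 for the interaction. The causes were not tested.

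The replicate block gave 14 calls in KO against flox under vehicle and 0 in the other comparisons, those for MTX in flox mice among them. Of 63 values of single members, 14 changed sign in some alternative. In KO against flox under vehicle, Orc6 was 0.0051 with no filter and 0.079 with the replicate block, Pola1 0.015 with no filter, and Rfc1 0.018 with the replicate block. Gins4 was -0.0066 with DESeq2, -0.0078 with RLE factors and -0.016 with the minimum of 10 counts. Without flox vehicle replicates 1 and 3, Gins3 was 0.10, Gins4 -0.23 and Rfc5 0.51 in that comparison, Rfc5 was 0.25 for MTX in flox mice, and in the interaction Mcm10 was 0.049 and Rfc5 -0.014. With library size only, Cdc45 was 0.052 and Rpa1 0.044 in KO against flox under MTX. With 1 library left out under vehicle, the ranges were -0.043 to 0.015 for Orc6, -0.55 to 0.068 for Gins3, -0.091 to 0.17 for Gins4, -0.17 to 0.16 for Pola1, -0.11 to 0.030 for Rfc1, -0.53 to 0.19 for Rfc5, -0.19 to 0.055 for Rpa2 and -0.26 to 0.092 for Chaf1a. Cdc45 ranged from -0.31 to 0.074 in KO against flox under MTX and from -0.24 to 0.10 for MTX in KO mice. With 3 mice a group and 13 members below 100 counts in some library, small differences of these were not detectable at this depth.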
